A study of Mus musculus with 6 samples.

Results

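Antiviral effectors are the proteins that a cell makes in answer to interferon and that act directly on viral RNA, viral entry, viral assembly or the host translation machinery. Their transcripts were followed in dermal fibroblasts of mice. A list of 36 such genes was matched by symbol to the deposited table, and a gene was kept where its mean over the 6 libraries was at least 1 FPKM (fragments per kilobase of transcript scaled to library size, a level per length of transcript). Of the 36 listed genes, 31 were kept, of 46958 rows in the table and 12673 rows that passed the same threshold. Mx1 had a row of its own with a mean of 0.205 FPKM and was below it. Uba7, Herc6, Rtp4 and Sp100 occurred only in rows that merged them with overlapping genes, and these rows are given apart.

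The fibroblasts were isolated from the dermis of 1 to 2 day old mice of 2 genotypes, labelled RORγ-/- (knockout, KO) and RORγ+/+ (wild type, WT). RORγ is a nuclear receptor, and the labels do not say which part of its gene is missing in the KO. Cells of several mice were pooled and used at an early passage. Cells of each genotype received 100 nM of 20(OH)L3, 20(OH)Cholesterol or 20(OH)7DHC for 24 h, in 0.1% ethanol with 10% charcoal-stripped serum, which all 6 cultures shared. Lumisterol, the parent of 20(OH)L3, is a ring stereoisomer of 7-dehydrocholesterol, the parent of 20(OH)7DHC, and cholesterol lacks a ring double bond that 7-dehydrocholesterol has. There was 1 library for each genotype and sterol, so the 3 KO and 3 WT libraries were replicates of a genotype across sterols. The p-values measure the spread between these libraries only, and genotype and pool of mice cannot be told apart. The design text of the series names other compounds, vitamin D3 derivatives, and the sterols given here are those of the sample labels. None of the 6 libraries came from vehicle-treated cells, so no level without a sterol is given. Estimated depth was 7700000 to 13200000 fragments in KO and 12500000 to 13000000 fragments in WT libraries.

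Type I interferons bind a receptor made of Ifnar1 and Ifnar2, whose kinases Jak1 and Tyk2 activate STAT transcription factors, Stat2 among them. A complex that holds Stat2 and Irf9 binds the interferon-stimulated response element in the promoters of the effector genes, and Irf7 is itself induced and raises interferon production. Fibroblasts are known to make interferon beta on infection and to keep many effector transcripts at a low level without infection.

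Of the 31 antiviral effectors, 29 were called lower in KO than in WT fibroblasts, and Isg20 and Ifi35 did not pass the test. The median over the 31 genes was 0.915 FPKM in KO libraries and 23.9 FPKM in WT libraries. Every KO library was below every WT library for 31 of 31 genes, against 22.9% of all rows tested. By limma on log2(FPKM + 1), with Benjamini-Hochberg adjustment over all 12673 rows at 0.05, those 29 of the 31 genes were lower in KO, against 6.64% of all rows, and 0 were higher, against 2.43% of all rows. The median log2 difference, KO minus WT, was -3.28 over the 31 genes, with a range of -6.78 to -0.48, and -0.001 over all rows. The filter bears on these counts: 17 of the 31 genes had a KO mean under 1 FPKM and were kept through their WT level, so the counts describe the list and are no support for it. The number of genes called changed when 1 library was left out. It was 10 without the KO 20(OH)Cholesterol library, where 89 of all rows were lower, and 10 without the WT 20(OH)Cholesterol library. It was 18 without the KO 20(OH)L3 library and 17 without the WT 20(OH)L3 library, where 198 and 186 of all rows were lower. With sterol in the model, leaving out either library of a sterol takes the pair out of the genotype difference and lowers the residual degrees of freedom. The KO and WT omissions of 1 sterol are therefore not separate checks. The log2 difference of Ifit1, for example, was -6.69 without the KO and also without the WT 20(OH)L3 library. With the rows chosen over all 6 libraries kept, 0 were called without either 20(OH)Cholesterol library. Calls over all rows were not counted in that setting, so this 0 has no background beside it. No gene changed sign with 1 library left out, but none could. KO was below WT within each sterol for every gene, so this is no check of the result. In bulk libraries, fewer cells that express a transcript and less of it per cell cannot be told apart.

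**Figure D1:**
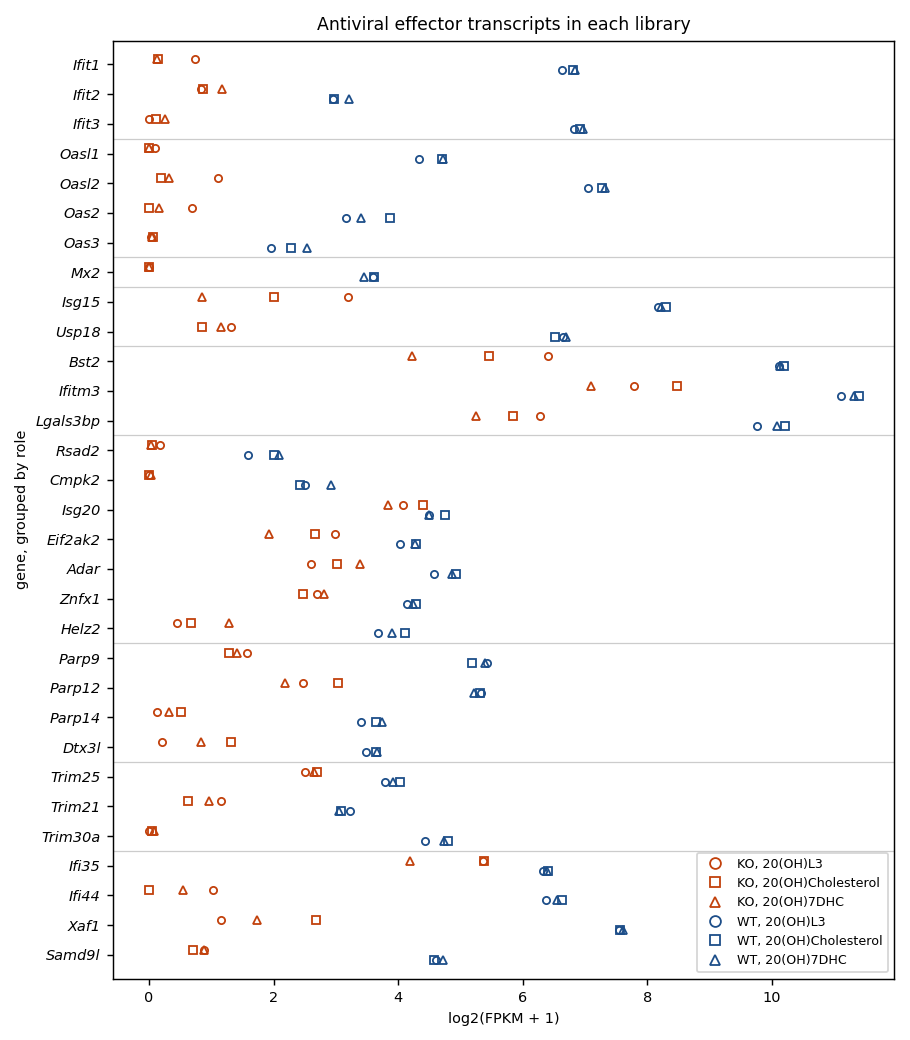
Level of each of the 31 antiviral effector transcripts as log2(FPKM + 1) in each library, with genes grouped by role between grey lines, KO libraries in orange and WT libraries in blue; the marker shape gives the sterol. Every KO library lies left of every WT library for each gene, and the gap is smallest for Isg20.

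The same direction was seen within each sterol, where 1 KO library is set against 1 WT library and no test applies. KO was below WT by over 2-fold on the log2(FPKM + 1) scale for 29 of 31 genes with 20(OH)L3, against 16.5% of all rows. It was so for 30 of 31 genes with 20(OH)Cholesterol, against 15.4% of all rows, and for 30 of 31 with 20(OH)7DHC, against 10.1% of all rows. The median log2 difference of the 31 genes was -3.29 with 20(OH)L3, -3.45 with 20(OH)Cholesterol and -3.42 with 20(OH)7DHC.

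The KO level was at or under 1% of the WT level for 9 genes, above 1% and up to 10% for 13, above 10% and up to 50% for 8, and above 50% for Isg20 alone, at 71.1%. WT means ranged from 2.76 FPKM for Rsad2 to 2487 FPKM for Ifitm3. Rsad2, with a mean of 1.41 FPKM over all 6 libraries, and Oas3, with 1.94 FPKM, were the kept genes nearest to the threshold, and Mx1 was the nearest below it. Mx2 was listed at 0 in all 3 KO libraries, 7 of the 31 genes were at 0 in at least 1 KO library, and 0 genes were at 0 in a WT library. Where KO values were this low they rested on few fragments: Ifit3, for example, stood at an estimated 0, 1 and 4 fragments in KO libraries and 2161, 2400 and 2494 in WT libraries. The relative spread was wider in KO, with a median coefficient of variation of 56.1% over the 31 genes in KO and 9.22% in WT, against 32.7% in KO and 10.6% in WT over all rows tested.

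**Figure D2:**
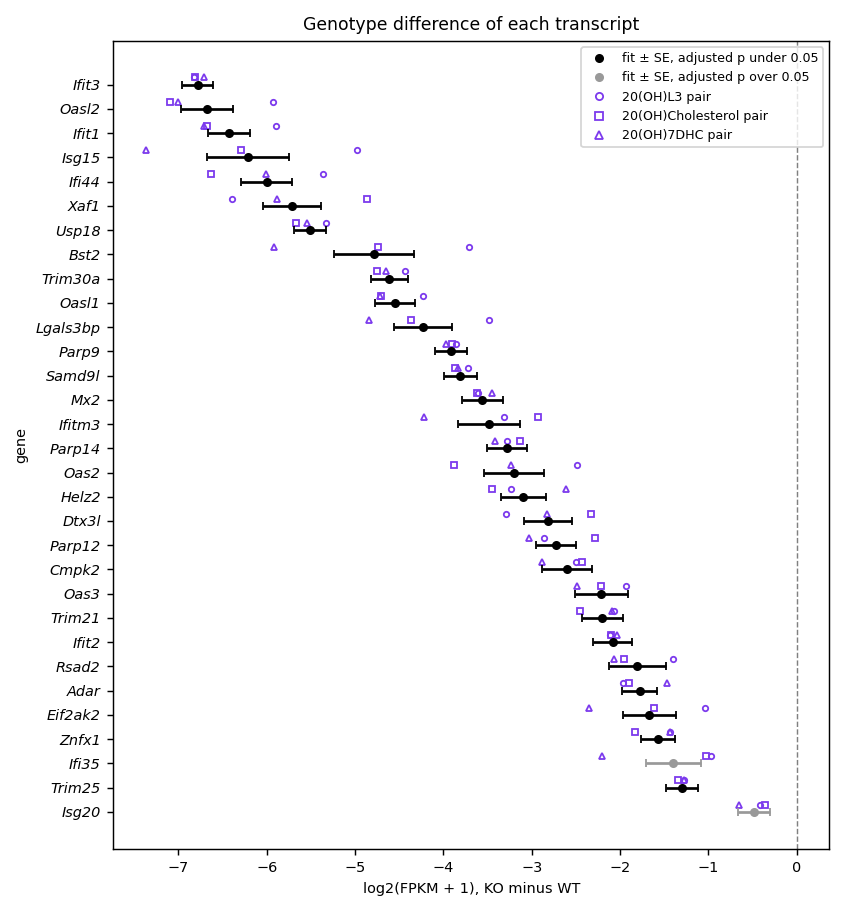
Log2(FPKM + 1) difference, KO minus WT, of each transcript, ordered by size. Filled circles are the limma fit over 3 KO and 3 WT libraries with its standard error, black where the adjusted p is under 0.05 and grey otherwise, and open purple markers give each sterol's pair of libraries. All fitted values are below 0, from -6.78 for Ifit3 to -0.48 for Isg20.

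Promoters were read from RefSeq on GRCm38.p6, where 29 of the 36 listed genes had an entry of 250 bases before to 50 bases after the start. The core of the interferon-stimulated response element was searched as GAAANNGAAA on both strands. It was found in 10 of the 29 promoters (34.5%), against 1079 of 27025 genes in the promoter table (3.99%) and 292 of 8344 genes with a mean of at least 1 FPKM (3.50%). The gamma-activated site core, TTCNNNGAA, was found in 7 of the 29 (24.1%), against 9.55% of the table and 8.09% of the 8344 genes. The TATA box core TATAAA, taken for comparison, was found in 2 of the 29 (6.90%), against 15.7% of the table and 8.29% of the 8344 genes. Of 18 response element matches, 2 overlapped a gamma-activated site match. The 200 bases before the start are shown for the 4 genes with the largest fall among those whose promoter held the response element core, which is in capitals on whichever strand it was found. The first is Ifit3 at chr19:34583329-34583528 on the plus strand, with 2 matches on the opposite strand:
Ifit3: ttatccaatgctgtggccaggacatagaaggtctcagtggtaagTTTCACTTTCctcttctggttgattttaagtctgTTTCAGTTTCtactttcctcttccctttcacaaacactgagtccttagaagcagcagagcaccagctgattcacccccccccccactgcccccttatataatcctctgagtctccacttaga
The next is Ifit1 at chr19:34640689-34640888 on the plus strand, also with 2 matches on the opposite strand:
Ifit1: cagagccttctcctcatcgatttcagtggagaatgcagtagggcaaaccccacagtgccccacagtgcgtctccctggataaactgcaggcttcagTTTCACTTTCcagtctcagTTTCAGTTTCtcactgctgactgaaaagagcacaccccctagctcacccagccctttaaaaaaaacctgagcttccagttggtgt
Isg15, at chr4:156200819-156201018 on the minus strand, had 3 matches that overlap one another and form 1 run of capitals:
Isg15: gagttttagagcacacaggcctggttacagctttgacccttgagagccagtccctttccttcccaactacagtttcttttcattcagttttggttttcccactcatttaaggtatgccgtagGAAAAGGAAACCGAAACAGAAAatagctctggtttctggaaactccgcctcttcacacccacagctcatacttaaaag
Bst2, at chr8:71537473-71537672 on the minus strand, had 2 overlapping matches:
Bst2: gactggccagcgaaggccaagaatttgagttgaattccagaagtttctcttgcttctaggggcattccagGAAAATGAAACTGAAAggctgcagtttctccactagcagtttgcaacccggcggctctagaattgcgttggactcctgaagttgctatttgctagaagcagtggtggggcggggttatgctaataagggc
For contrast, the 2 genes with an entry and the smallest difference are shown, which held no response element match. Isg20 held a gamma-activated site match, which is not in capitals. All printed genes were picked by their difference, so they do not show how a match and a fall go together. Isg20, at chr7:78913224-78913423 on the plus strand, is the first of 3 starts in the table:
Isg20: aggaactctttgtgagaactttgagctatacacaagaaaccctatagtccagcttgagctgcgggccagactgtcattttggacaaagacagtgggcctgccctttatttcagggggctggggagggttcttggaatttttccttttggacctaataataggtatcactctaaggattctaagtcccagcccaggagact
Trim25 lies at chr11:88999203-88999402 on the plus strand:
Trim25: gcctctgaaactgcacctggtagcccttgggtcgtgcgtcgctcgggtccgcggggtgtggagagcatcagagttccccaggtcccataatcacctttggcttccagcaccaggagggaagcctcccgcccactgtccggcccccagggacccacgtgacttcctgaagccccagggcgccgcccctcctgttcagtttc

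The printed stretches differ in the count and spacing of the core, and a match of letters is a description, not a bound site. The genes with a match among those kept were Ifit3, Ifit1, Isg15, Bst2, Trim30a, Ifitm3, Oas3, Trim21, Rsad2 and Eif2ak2. Their median log2 difference was -4.05 (n = 10, from -6.78 to -1.67), and that of the 16 kept genes with an entry and no match was -2.77 (from -6.68 for Oasl2 to -0.48 for Isg20). The ranges overlap, and Ifit1 and Ifit3 are neighbouring paralogs and so not independent of each other.

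**Figure D3:**
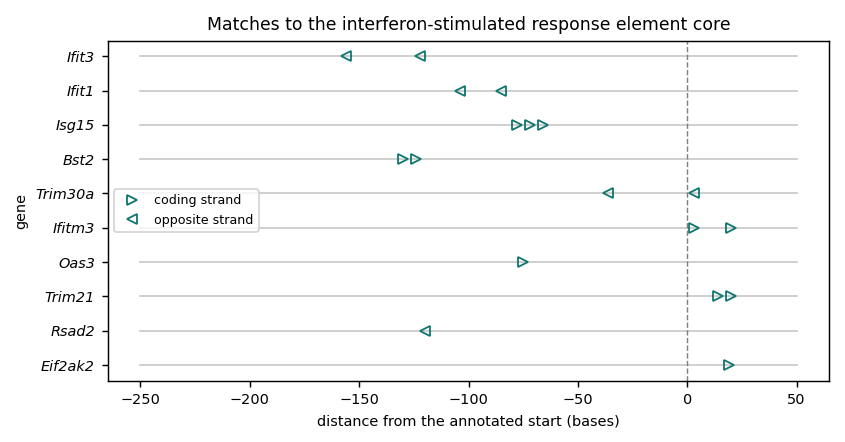
Position of each match to the interferon-stimulated response element core in the searched window of 10 kept genes, in bases from the annotated start (dashed line), with genes ordered by log2 difference. Triangles mark the first base of a match and point right on the coding strand and left on the opposite strand. For Ifit3, Ifit1, Isg15, Bst2, Oas3 and Rsad2 every match lies before the start, at 66 to 156 bases, whereas those of Ifitm3, Trim21 and Eif2ak2 lie after it.

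The IFIT proteins, which bind viral RNA and hold it back from translation, showed the largest falls of any role group, with a median log2 difference of -6.43. All 3 lie in 1 cluster on chromosome 19 of GRCm38, with Ifit2 at 34550694 to 34576419, Ifit3 at 34583531 to 34588731 and Ifit1 at 34640871 to 34650009. Values are given throughout by library for 20(OH)L3, then 20(OH)Cholesterol, then 20(OH)7DHC, and each fall is the limma difference on the log2(FPKM + 1) scale ± SE over 3 KO and 3 WT libraries. Ifit3, which in human cells stabilises IFIT1, stood at 0, 0.0834 and 0.194 FPKM in KO libraries, against 112, 120.4 and 124 FPKM in WT libraries. It fell by 6.78 ± 0.18 on the log2 scale (adjusted p = 0.00122), the most of the 31 genes. Ifit1, which recognises RNA whose cap lacks the host's methyl marks, stood at 0.671, 0.105 and 0.0915 FPKM in KO and 98.4, 112 and 113 FPKM in WT, and fell by 6.43 ± 0.24 on the log2 scale (adjusted p = 0.00137). Its highest KO value, in the 20(OH)L3 library, was far below its lowest WT value. Ifit2, an IFIT protein that limits virus spread in mouse brain, was the least abundant of the 3 in WT, at 0.789, 0.818 and 1.26 FPKM in KO and 6.75, 6.83 and 8.25 FPKM in WT. It fell by 2.08 ± 0.22 on the log2 scale (adjusted p = 0.00993), and it kept the most transcript of the family, at 13.2% of WT. Ifit3 has a near-identical copy, Ifit3b, with which fragments may be shared, and it was lower as well, at 0.183, 0 and 0.0833 FPKM in KO and 26.7, 31.2 and 32.0 FPKM in WT.

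The oligoadenylate synthetase family, whose enzymes answer double-stranded RNA with a messenger that switches on RNase L, fell in all 4 genes, with a median log2 difference of -3.87. Oasl2, a synthetase-like protein, was the most abundant in WT, with 1.16, 0.142 and 0.247 FPKM in KO and 131, 154 and 159.6 FPKM in WT, and fell by 6.68 ± 0.29 on the log2 scale (adjusted p = 0.00153). Oasl1, which in mice restrains translation of Irf7, stood at 0.0708, 0 and 0 FPKM in KO and 19.1, 25.1 and 25.3 FPKM in WT, and fell by 4.55 ± 0.23 on the log2 scale (adjusted p = 0.00161). In KO it was detected with 20(OH)L3 alone, at an estimated 1.3 fragments. Oas2 stood at 0.607, 0 and 0.120 FPKM in KO and 7.99, 13.7 and 9.54 FPKM in WT, and Oas3 at 0.0243, 0.0451 and 0.0331 FPKM in KO and 2.91, 3.86 and 4.78 FPKM in WT. Oas2 fell by 3.20 ± 0.34 on the log2 scale (adjusted p = 0.0101), and Oas3 fell by 2.21 ± 0.30 on the log2 scale (adjusted p = 0.0182). Oas2 was the most variable of the family in WT, where its 20(OH)Cholesterol library was highest.

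Mx proteins are dynamin-like GTPases that trap incoming viral nucleocapsids. Mx2 was listed at 0 in all 3 KO libraries, against 11.2, 11.3 and 9.96 FPKM in WT libraries, and it was called lower (adjusted p = 0.00333, limma), with no fold given because KO was at 0. Mx1, which many inbred laboratory mouse strains carry in a defective form, was also listed at 0 in all 3 KO libraries, against 0.432, 0.383 and 0.412 FPKM in WT, and lay below the threshold for testing. The WT libraries held 50 estimated fragments of Mx1 in all and the KO libraries 0.

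Isg15 is a ubiquitin-like protein that is joined to other proteins during infection. It stood at 8.15, 3.03 and 0.813 FPKM in KO and 287, 315 and 298 FPKM in WT, and fell by 6.21 ± 0.47 on the log2 scale (adjusted p = 0.00470). Its 3 KO values differed, with the 20(OH)L3 library highest and the 20(OH)7DHC library lowest, yet all lay far under WT. Usp18, which removes Isg15 from its targets and damps the interferon receptor, stood at 1.49, 0.801 and 1.22 FPKM in KO and 99.3, 90.5 and 102 FPKM in WT, and fell by 5.51 ± 0.18 on the log2 scale (adjusted p = 0.00137). Its KO values were close to each other. The 2 other listed genes of this pathway were measured in merged rows. The row of Herc6, the main Isg15 ligase in mice, with 4930533I22Rik and Gm45193 was lower in KO, at 0.373, 0.518 and 0.618 FPKM in KO and 5.94, 5.96 and 6.52 FPKM in WT (log2 difference -2.25 ± 0.24, adjusted p = 0.0100, limma). The row that merges Uba7, which activates Isg15, with Cdhr4, Gm20661, Gm20662 and Ip6k1 did not pass, at 24.6, 28.4 and 84.0 FPKM in KO and 104, 80.9 and 119 FPKM in WT (log2 difference -1.34 ± 0.33, adjusted p = 0.0717, limma). Here the KO 20(OH)7DHC library lay within the WT range, and the share of Uba7 in that row cannot be read from it. Ube2l6, the enzyme between Uba7 and the ligase and outside the list of 36, stood at 6.82, 4.37 and 3.88 FPKM in KO and 152, 149 and 153 FPKM in WT.

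The 3 kept genes of the membrane and entry group, in which the secreted Lgals3bp was also placed, held the highest levels of the whole list. Ifitm3, which blocks fusion of virus with endosomes, stood at 221, 355 and 136 FPKM in KO and 2209, 2700.1 and 2552 FPKM in WT, and fell by 3.49 ± 0.35 on the log2 scale (adjusted p = 0.00887). It remained the most abundant of the 31 transcripts in KO, at 9.54% of its WT level. Bst2 (tetherin), which ties budding virus to the cell surface, stood at 84.1, 43.0 and 17.6 FPKM in KO and 1114, 1175 and 1120.25 FPKM in WT, and fell by 4.79 ± 0.45 on the log2 scale (adjusted p = 0.00754). Its KO values were ordered as those of Isg15, with 20(OH)L3 highest and 20(OH)7DHC lowest. Lgals3bp, a secreted galectin-binding glycoprotein, stood at 76.5, 56.6 and 37.1 FPKM in KO and 866, 1190.45 and 1091 FPKM in WT, and fell by 4.23 ± 0.33 on the log2 scale (adjusted p = 0.00492). Rtp4, a Golgi chaperone of receptors, was measured in a row merged with RP23-389N20.2, at 1.67, 1.67 and 1.91 FPKM in KO and 159.7, 177 and 169.7 FPKM in WT. Its 3 KO values were close together, with a log2 difference of -5.95 ± 0.18 (SE; adjusted p = 0.00122, limma).

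Enzymes that act on nucleotides and RNA fell less, with a median log2 difference of -1.78 over 7 genes, of which 6 passed. Cmpk2, a mitochondrial nucleotide kinase, stood at 0, 0 and 0.0250 FPKM in KO and 4.65, 4.37 and 6.54 FPKM in WT, and fell by 2.60 ± 0.28 on the log2 scale (adjusted p = 0.0103). Helz2, a large helicase, stood at 0.362, 0.594 and 1.44 FPKM in KO and 11.8, 16.4 and 13.9 FPKM in WT, and fell by 3.10 ± 0.26 on the log2 scale (adjusted p = 0.00581). In KO, Cmpk2 was listed at 0 in all but the 20(OH)7DHC library, the deepest of KO, where it rested on an estimated 1 fragment. Helz2 was also highest in that library. Rsad2 (viperin), which makes a chain-terminating nucleotide, was the least abundant in WT, with 0.133, 0.0389 and 0.0209 FPKM in KO and 2.00, 3.02 and 3.27 FPKM in WT. It fell by 1.81 ± 0.32 on the log2 scale (adjusted p = 0.0360), on a scale that shrinks the differences of low genes.

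Adar, Znfx1, Eif2ak2 and Isg20 kept more of their WT level in KO, from 27.1% for Adar to 71.1% for Isg20. Adar, which edits adenosine in double-stranded RNA, stood at 5.09, 7.15 and 9.47 FPKM in KO and 22.8, 29.4 and 28.0 FPKM in WT, and fell by 1.78 ± 0.20 on the log2 scale (adjusted p = 0.0112). Znfx1, an RNA helicase that senses viral RNA at mitochondria, stood at 5.48, 4.53 and 5.99 FPKM in KO and 16.6, 18.6 and 17.9 FPKM in WT, and fell by 1.57 ± 0.19 on the log2 scale (adjusted p = 0.0148). Eif2ak2 (PKR), a kinase that stops translation on meeting double-stranded RNA, stood at 6.93, 5.38 and 2.79 FPKM in KO and 15.3, 18.6 and 18.4 FPKM in WT, and fell by 1.67 ± 0.30 on the log2 scale (adjusted p = 0.0364). Among these the KO order differed: Adar was highest with 20(OH)7DHC and Eif2ak2 was lowest with it. Isg20, an exonuclease that degrades RNA, did not pass, at 15.9, 20.0 and 13.3 FPKM in KO and 21.6, 26.0 and 21.6 FPKM in WT, with a log2 difference of -0.48 ± 0.18 (SE) and an adjusted p of 0.141 (limma). Its groups did not overlap, but the highest KO and the lowest WT value lay close together.

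The ADP-ribosyltransferases and their partner fell in all 4 genes, with a median log2 difference of -3.05. Parp9 and Dtx3l form a complex that modifies histones and viral proteins. Parp9 stood at 1.97, 1.44 and 1.68 FPKM in KO and 42.1, 35.6 and 41.1 FPKM in WT, and fell by 3.91 ± 0.18 on the log2 scale (adjusted p = 0.00153). Dtx3l stood at 0.150, 1.48 and 0.785 FPKM in KO and 10.2, 11.5 and 11.7 FPKM in WT, and fell by 2.82 ± 0.27 on the log2 scale (adjusted p = 0.00786). The partners differed within KO, where Parp9 hardly varied and Dtx3l was lowest with 20(OH)L3. Parp14, a transferase with macrodomains, stood at 0.0913, 0.428 and 0.249 FPKM in KO and 9.60, 11.5 and 12.4 FPKM in WT, and fell by 3.28 ± 0.23 on the log2 scale (adjusted p = 0.00378). Parp12, a zinc-finger transferase, kept more transcript, with 4.55, 7.19 and 3.55 FPKM in KO and 39.2, 39.0 and 36.1 FPKM in WT, and fell by 2.72 ± 0.22 on the log2 scale (adjusted p = 0.00576).

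The 3 TRIM ubiquitin ligases all fell, by unequal amounts. Trim30a, a TRIM protein with many copies in mice, stood at 0, 0.0361 and 0.0629 FPKM in KO and 20.6, 27.0 and 25.7 FPKM in WT, and fell by 4.61 ± 0.21 on the log2 scale (adjusted p = 0.00153). Its neighbour Trim30d, outside the list, with which fragments may be shared, stood at 0.143, 0.125 and 0.486 FPKM in KO and 13.1, 12.4 and 13.3 FPKM in WT. Trim21, a cytosolic antibody receptor, stood at 1.24, 0.552 and 0.954 FPKM in KO and 8.39, 7.51 and 7.31 FPKM in WT, and fell by 2.204 ± 0.23 on the log2 scale (adjusted p = 0.00993). Trim25, which activates the RNA sensor RIG-I, stood at 4.69, 5.47 and 5.28 FPKM in KO and 12.8, 15.4 and 14.2 FPKM in WT. It fell by 1.30 ± 0.18 on the log2 scale (adjusted p = 0.0192), the least of those that passed, and its groups were tight and well apart. The row merging Sp100, a nuclear body protein, with n-R5s215 stood at 0, 0.307 and 0.827 FPKM in KO and 22.3, 20.3 and 27.4 FPKM in WT (log2 difference -4.18 ± 0.23, adjusted p = 0.00188, limma).

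Of 4 other interferon-induced proteins, 3 fell. Xaf1, a binding partner of an apoptosis inhibitor, stood at 1.23, 5.44 and 2.32 FPKM in KO and 186, 187 and 195 FPKM in WT, and fell by 5.71 ± 0.33 on the log2 scale (adjusted p = 0.00218). Ifi44, a cytoplasmic protein, stood at 1.03, 0 and 0.456 FPKM in KO and 82.4, 97.7 and 93.0 FPKM in WT, and fell by 5.999 ± 0.29 on the log2 scale (adjusted p = 0.00161). Samd9l, a growth-restraining antiviral factor, stood at 0.848, 0.628 and 0.852 FPKM in KO and 23.4, 22.8 and 25.4 FPKM in WT, and fell by 3.81 ± 0.19 on the log2 scale (adjusted p = 0.00161). Among KO libraries Xaf1 was highest with 20(OH)Cholesterol, Ifi44 was listed at 0 with it, and Samd9l was nearly level. Ifi35, a leucine-zipper protein, did not pass, at 40.1, 40.8 and 17.2 FPKM in KO and 79.4, 83.9 and 82.7 FPKM in WT, with a log2 difference of -1.40 ± 0.31 (SE) and an adjusted p of 0.0579 (limma). Its KO 20(OH)7DHC library lay well below the other two KO libraries. On the 11157 rows of single genes of at least 300 nt, a set of rows chosen after seeing the data, Ifi35 passed (adjusted p = 0.0211, limma) and Isg20 did not (adjusted p = 0.128), with 30 of 31 effectors lower, against 11.4% of these rows. With the dependence of each library on transcript length also removed, Isg20 passed as well (adjusted p = 0.0337, limma), with 31 of 31 lower, against 10.4% of these rows. These are single alternatives: over the 21 counted for each gene, Isg20 did not pass in 20 and Ifi35 did not pass in 12.

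The 3 sterols were compared at the same dose and time, in 3 pairs, each with 1 KO and 1 WT library per sterol and genotype as an additive term. By limma, 0 of 31 effectors passed for 20(OH)L3 minus 20(OH)7DHC, against 0.0395% of all rows. For 20(OH)Cholesterol minus 20(OH)7DHC it was also 0 of 31, against 0.0395% of all rows, and for 20(OH)L3 minus 20(OH)Cholesterol 0 of 31, against 0% of all rows. At an unadjusted p under 0.05, again 0 effectors passed in each pair, against 482, 221 and 242 of all rows in the same order. The smallest adjusted p of an effector was 0.701 in the first pair, 0.830 in the second and 1 in the third. This does not show that the sterols act alike, since the 95% intervals were wide, with a median width of 1.52 on the log2 scale. For the stereoisomer-derived pair, the interval for Isg15 ran from -0.33 to 2.61 around 1.14, that for Bst2 from -0.33 to 2.51 around 1.09, and that for Adar from -1.16 to 0.09 around -0.53. Parp9 had a narrower interval, from -0.46 to 0.65. For 20(OH)Cholesterol minus 20(OH)7DHC, which differ by a ring double bond, Ifitm3 had the largest difference, at 0.73 with an interval of -0.37 to 1.83. For 20(OH)L3 minus 20(OH)Cholesterol, Xaf1 had the largest, at -0.77 with an interval of -1.81 to 0.27.

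Within each genotype the sterol libraries can be read only as single values. In WT, 24 of the 31 effectors were lowest in the 20(OH)L3 library (77.4%), against 40.3% of all rows tested. The differences were small, with a median of -0.18 on the log2 scale for WT 20(OH)L3 minus WT 20(OH)7DHC, against -0.01 for all rows. Oas3 had the largest WT difference of this kind, at -0.57, and Trim21 had the highest, at 0.18. With 1 library each there is no test of this order.

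In KO the same subtraction, 20(OH)L3 minus 20(OH)7DHC, ran from -0.84 for Helz2 to 2.33 for Isg15, with a median of 0.15. Bst2 followed at 2.19, Ifi35 at 1.18, Eif2ak2 at 1.06 and Lgals3bp at 1.03, while Adar stood at -0.78. The highest values belonged to short transcripts: Isg15 is 756 nt long and Bst2 792 nt, against 5909 nt for Adar and 10109 nt for Helz2. Not every gene followed this order. Ifitm3, at 678 nt, stood at 0.69 and Isg20, at 1087 nt, at 0.23, whereas Eif2ak2 is 4313 nt and Lgals3bp 2330 nt long. Across the 31 effectors, which share libraries and depth, the difference had a Pearson r of -0.68 with log2 transcript length (Spearman rho -0.59), against an r of -0.32 (rho -0.38) in WT. Such a length dependence was seen over all genes. The median log2 difference, KO minus WT, of genes under 1 kb was 1.23 with 20(OH)L3, 1.02 with 20(OH)Cholesterol and 0.03 with 20(OH)7DHC, and that of genes of 6 kb and over was -0.37, -0.39 and 0.02. With the length trend removed, the KO difference of Isg15 was 1.74, that of Bst2 1.61, that of Ifi35 0.65 and that of Lgals3bp 0.83. That of Eif2ak2 was larger than before, at 1.24, and those of Adar and Helz2 were -0.49 and -0.45. The median over the 31 effectors hardly moved, at 0.14 with the trend removed and 0.15 with it kept. The KO 20(OH)7DHC library alone was also set against the 3 WT libraries, a comparison chosen after seeing the data. The spread then came from the WT libraries only, and the lone KO library is assumed to vary like them. KO libraries varied more, with a median coefficient of variation of 56.1% over the 31 effectors, against 9.22% in WT. Calls from this comparison are therefore not read as a result.

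**Figure D4:**
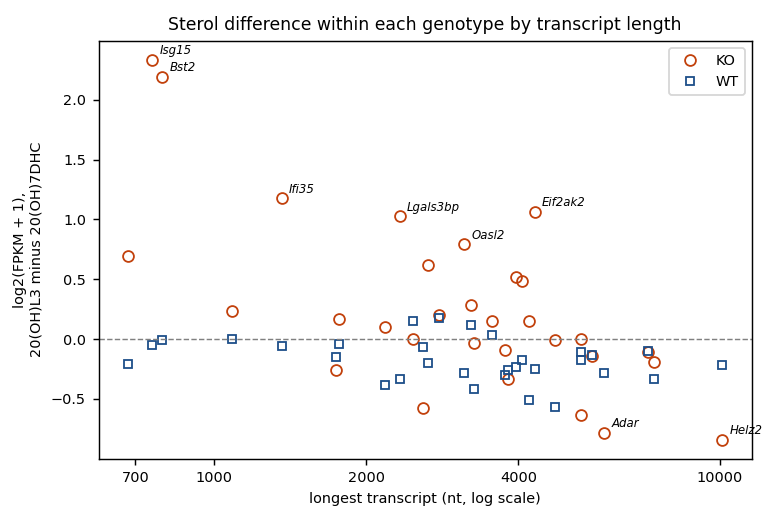
Log2(FPKM + 1) difference between the 20(OH)L3 and 20(OH)7DHC libraries of 1 genotype against the longest annotated transcript of each of the 31 effectors, on a log axis, with KO as orange circles and WT as blue squares. Names mark KO differences over 0.7 in size. KO values run from 2.33 for Isg15 at 756 nt to -0.84 for Helz2 at 10109 nt, and WT values stay between -0.57 and 0.18.

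The genes around the effectors were taken from lists. The filter bears on these lists too. Zbp1, Dhx58, Ifit3b and Trim30d, for example, had KO means under 1 FPKM and were kept through their WT level. Of 11 interferon ligands, 10 were listed at 0 in all 6 libraries, and Ifnb1 was at 0 in all 3 KO libraries and at 0, 0.139 and 0.415 FPKM in WT libraries. Of 18 receptors, kinases, STAT and IRF factors, 13 were tested, with a median log2 difference of -0.79. Of these, 4 were lower, against 6.64% of all rows, and 0 higher, against 2.43% of all rows. Irf7 stood at 4.20, 1.52 and 1.96 FPKM in KO and 288, 392 and 322 FPKM in WT, and fell by 6.62 ± 0.33 on the log2 scale (adjusted p = 0.00161). Stat2, Irf1 and Stat3 make up the rest of the count and were named after their values were seen. Stat2, which acts with Irf9, fell by 4.04 ± 0.18 on the log2 scale (adjusted p = 0.00153). Irf1 fell by 2.62 ± 0.28 on the log2 scale (adjusted p = 0.0104), and Stat3 fell by 1.15 ± 0.21 on the log2 scale (adjusted p = 0.0384). Ifngr2, a chain of the interferon gamma receptor, did not pass, at 41.4, 48.0 and 39.2 FPKM in KO and 53.4, 62.0 and 65.1 FPKM in WT (adjusted p = 0.157). Irf3, which starts interferon transcription, stood at 185, 172 and 76.1 FPKM in KO and 53.6, 71.3 and 61.6 FPKM in WT (adjusted p = 0.0949). Irf5 stood at 186, 144 and 83.8 FPKM in KO and 80.0, 88.2 and 76.9 FPKM in WT (adjusted p = 0.159). For both, the KO 20(OH)7DHC library was the lowest of KO, and neither passed.

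Of 14 sensors of nucleic acid and their adaptors, 13 were tested, with a median of -1.44. Of these, 8 were lower, against 6.64% of all rows, and 0 higher, against 2.43% of all rows. Ddx58 (RIG-I) stood at 3.82, 5.18 and 6.07 FPKM in KO and 56.4, 64.4 and 63.7 FPKM in WT, and fell by 3.39 ± 0.18 on the log2 scale (adjusted p = 0.00188). Zbp1, a sensor of left-handed nucleic acid, stood at 0.775, 0 and 0.264 FPKM in KO and 45.7, 43.7 and 40.0 FPKM in WT, and fell by 5.07 ± 0.23 on the log2 scale (adjusted p = 0.00153). Dhx58 (LGP2), a relative of RIG-I, stood at 0.563, 0.466 and 1.54 FPKM in KO and 36.9, 40.1 and 40.1 FPKM in WT, and fell by 4.48 ± 0.23 on the log2 scale (adjusted p = 0.00179). Samhd1, which drains the nucleotide pool, stood at 20.6, 13.6 and 26.1 FPKM in KO and 31.5, 36.6 and 34.4 FPKM in WT and did not pass (adjusted p = 0.112).

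Of 31 close relatives of the effectors outside the list, 24 were tested, with a median of -1.27. Of these, 12 were lower, against 6.64% of all rows, and 0 higher, against 2.43% of all rows. Of the relatives with the highest levels, 1 passed. Ube2l6 fell by 4.69 ± 0.22 on the log2 scale (adjusted p = 0.00153). Ifi27 stood at 219, 223 and 116 FPKM in KO and 202, 196 and 205 FPKM in WT (adjusted p = 0.702). Uba1, the ubiquitin counterpart of Uba7, stood at 249, 325 and 305 FPKM in KO and 341, 350.3 and 364 FPKM in WT (adjusted p = 0.429), and Lgals3, the galectin that Lgals3bp binds, at 161, 134 and 82.5 FPKM in KO and 95.6, 89.0 and 84.7 FPKM in WT (adjusted p = 0.268). These last 3 did not pass. Of 8 negative regulators, 7 were tested, with a median of -0.42. Of these, 3 were lower and 0 higher, against the same shares of all rows. Socs3, an inhibitor of JAK kinases, stood at 2.34, 2.42 and 4.03 FPKM in KO and 69.8, 42.5 and 48.4 FPKM in WT and fell by 3.79 ± 0.27 on the log2 scale (adjusted p = 0.00392), and its relative Socs1 fell by 1.64 ± 0.24 on the log2 scale (adjusted p = 0.0235). The phosphatases Ptpn11 and Ptpn2 did not pass (adjusted p = 0.345 and 0.335).

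**Figure D5:**
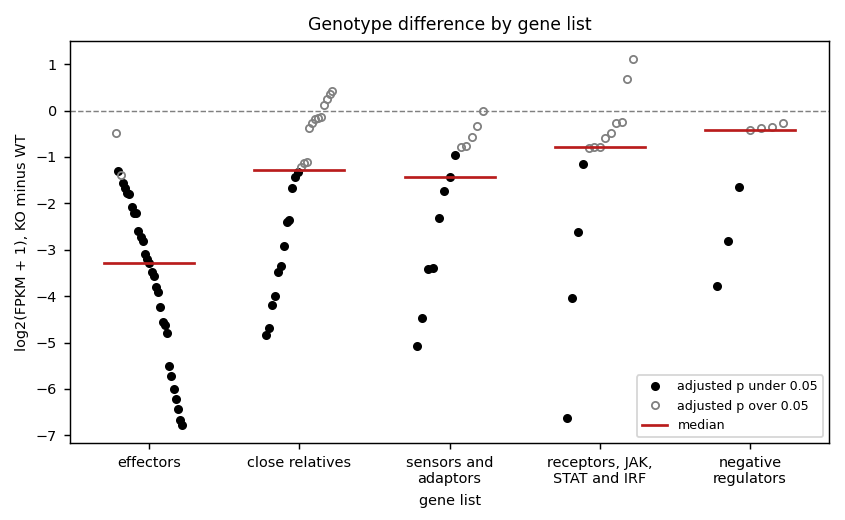
Log2(FPKM + 1) difference, KO minus WT, of each tested gene of the effector list and 4 related lists, filled where the limma adjusted p is under 0.05 and open otherwise, with the list median as a red line. The medians are -3.28 for the effectors, -1.27 for close relatives, -1.44 for sensors and adaptors, -0.79 for receptors, JAK, STAT and IRF genes and -0.42 for negative regulators.

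The labelled cell type was checked against its markers. Of 12 fibroblast markers, 9 had a row of their own and summed to 4483 to 5897 FPKM in KO libraries and 6862 to 7156 FPKM in WT libraries. Vim was high in all 6, at 4074, 5014 and 4153 FPKM in KO and 3345, 2844 and 3097 FPKM in WT. It made up most of each KO sum, so the sums hide how far other markers were lower in KO. Of 8 tested, Dcn, Lum, Col1a1 and Col1a2 were lower in KO, against 6.64% of all rows, and Lum was kept through its WT level. Dcn stood at 21.2, 5.74 and 16.6 FPKM in KO and 1254, 1489 and 1148 FPKM in WT. Thy1, at 37.0, 108 and 17.6 FPKM in KO and 192, 198 and 195 FPKM in WT, did not pass (adjusted p = 0.0593, limma). Pdgfrb also had a lower mean in KO and did not pass (adjusted p = 0.0893, limma). Vim and Fbn1 had higher means in KO, and neither passed. The 15 leukocyte markers with a row summed to 9.38 to 16.5 FPKM in KO and 13.4 to 17.1 FPKM in WT, and 0 of 4 tested passed. Of those tested, the mean of Csf1r was 4.31 FPKM in KO and 3.79 FPKM in WT, and that of Cd68 5.97 FPKM in KO and 3.23 FPKM in WT. Lyz2 and Cd14 had lower means in KO. Lyz2 stood at 1.38 FPKM in KO and 4.66 FPKM in WT (adjusted p = 0.0739, limma), and Cd14 at 1.22 FPKM in KO and 2.41 FPKM in WT. Mpeg1, below the threshold for testing, was at 0 in all 3 KO libraries and at 0.479, 0.830 and 0.568 FPKM in WT. Adgre1, Cd3e, Tyrobp and Siglech were at 0 in all 6 libraries and Ptprc reached 0.0339 FPKM in 1 KO library. The 12 keratinocyte markers summed to 6.81 to 13.1 FPKM in KO and 4.44 to 5.71 FPKM in WT, with Dsg3 at 0 throughout and 0 of 1 tested passing. Krt14 stood at 0.836, 3.75 and 0.244 FPKM in KO and 0.0862, 0.0829 and 0 FPKM in WT, and Krt17 at 1.30, 0.668 and 0.333 FPKM in KO and 0.118, 0 and 0 FPKM in WT. The 8 endothelial markers summed to 2.00 to 4.56 FPKM in KO and 1.56 to 2.90 FPKM in WT. Of these, Cdh5 stood at 2.00, 0.136 and 2.53 FPKM in KO and 0.0209, 0 and 0.0199 FPKM in WT. The 8 melanocyte and Schwann markers summed to 1.82 to 5.30 FPKM in KO and 0.597 to 1.42 FPKM in WT. Of these, Sox10 stood at 2.41, 0 and 1.04 FPKM in KO and 0, 0.0303 and 0 FPKM in WT. The 7 skeletal muscle markers with a row summed to 0.705 to 3.83 FPKM in KO and 1.05 to 3.56 FPKM in WT. The keratinocyte and the melanocyte and Schwann sums were higher in every KO library than in any WT library. The part of these marker differences and of the matrix marker difference in the effector result was not tested.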

How the data were processed

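RNA sequencing libraries of 6 fibroblast cultures were grouped by the genotype and sterol in the labels. The values deposited by the authors are FPKM per gene, per the file headers, in 1 table of 46958 rows, of which 1061 merge several symbols and 173 repeat one. STAR 2.5.4b, Cufflinks 2.2.1, Cuffdiff and GRCm38 are named in the submitters' processing notes. The sources used here give no annotation, strand setting or rule for fragments that match several places, so antisense partners and close paralogs are uncertain. Genotypes are as labelled, and a check of the targeted gene is not reported here.

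Depth, estimated from low values that fell on whole multiples of 1 fragment (97.3% to 98.2% within 0.05), was 9000000, 7700000 and 13200000 fragments for KO and 12500000, 12900000 and 13000000 for WT, in the order of sterols used in the report. These fragments enter no test.

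Tests used log2(FPKM + 1), a scale that shrinks the changes of low genes. The 12673 rows whose mean reached 1 FPKM entered a linear model of genotype plus sterol in limma (version 3.58.1, R 4.3.3), with an intensity trend, 2-sided tests and Benjamini-Hochberg adjustment over all rows at 0.05, on 2 residual and 3.04 prior degrees of freedom. The fit was run on simulated data with independent noise of equal spread in both genotypes. The KO libraries varied more than the WT libraries, so that run is no check of the calls given here. The genotype by sterol interaction has no replicate and is given as values. Genes outside the effector list were named as the up to 4 with the highest mean in each list. Ifit3b, Trim30d, Stat2, Irf1, Stat3, Lum, Thy1, Pdgfrb, Fbn1 and Mpeg1 were added after their values were seen. The markers given as at or near 0 (Adgre1, Cd3e, Tyrobp, Siglech, Ptprc and Dsg3) were also added after their values were seen. The genes and lists were chosen with earlier results of these data known. Transcript lengths and gene coordinates came from GENCODE M21. Alternatives covered the pseudocount, filters, scaling, prior, model terms, left-out libraries and the length trend. Python 3.11.15 with pandas 2.3.3 and matplotlib 3.10.9 prepared tables and figures.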

Additional observations from a re-analysis of the deposited data

Results flagged for a closer look

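In 5 effectors the 20(OH)L3 library was above the 20(OH)7DHC library by over 1 on the log2 scale in KO and was below it in WT. On the log2(FPKM + 1) scale this difference was 2.33 in KO and -0.05 in WT for Isg15, 2.19 in KO and -0.01 in WT for Bst2, and 1.18 in KO and -0.06 in WT for Ifi35. It was 1.06 in KO and -0.25 in WT for Eif2ak2, and 1.03 in KO and -0.33 in WT for Lgals3bp. With 1 library for each genotype and sterol, this difference between genotypes was not tested. The WT differences of Isg15, Bst2 and Ifi35 were close to 0. The length of these transcripts, 756 nt for Isg15, 792 nt for Bst2, 1362 nt for Ifi35, 2330 nt for Lgals3bp and 4313 nt for Eif2ak2, moved with the difference in KO as described above. With the length trend removed the KO difference was 1.74 for Isg15, 1.61 for Bst2, 0.65 for Ifi35, 0.83 for Lgals3bp and 1.24 for Eif2ak2.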

How the results depend on the processing

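The 29 effectors called lower were 18 with no filter on low values and 17 without both 20(OH)Cholesterol libraries. Leaving out 1 library, which also takes its sterol pair out of the genotype difference, gave 10 to 29 with the filter recomputed. With the rows of all 6 libraries kept, an alternative chosen after seeing the data, this gave 0 to 27, with 0 without either 20(OH)Cholesterol library. Calls over all rows were not counted in that alternative. The other alternatives gave 22 to 31, and 0 effectors were called higher in any of the alternatives in which this was counted. Ifit1, Ifit3, Oasl1, Oasl2, Usp18, Parp9, Trim30a, Ifi44, Xaf1 and Samd9l passed in each of the 21 alternatives outside that last one. Isg20 did not pass in 20 of 21 and Ifi35 in 12 of 21. Rsad2, which was called in the main test, did not pass in 11 of 20. The median difference of -3.28 was -4.78 with a pseudocount of 0.1, -3.93 with 0.5, -3.68 with a mean of at least 5 FPKM, -2.99 with quantile normalization, -3.02 with the length trend removed and -3.54 without both 20(OH)L3 libraries, and ran from -3.54 to -3.20 with 1 library left out. No effector passed a sterol contrast in any alternative run for it.

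The background moved more. The 842 rows lower and 308 rows higher were 242 and 25 with no filter, 1336 and 735 with no sterol term, and 308 and 35, 203 and 19, and 1431 and 1835 without both libraries of 20(OH)L3, 20(OH)Cholesterol and 20(OH)7DHC in turn. Single-gene rows of at least 300 nt gave 1268 and 880, and KO 20(OH)7DHC alone against WT, where only the WT libraries give the spread, 1501 and 1006, both chosen after seeing the data. Quantile normalization gave 576 higher, and removal of the length trend on those single-gene rows 1162 lower and 1312 higher. With 1 library left out, 89 to 1124 were lower and 6 to 1440 higher. The causes were not tested.

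Depth limits the effectors that are near 0 in KO, where 1 fragment decides whether a value is 0.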
